A study of Mus musculus with 5 samples.

Results

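Dual-specificity MAP kinase phosphatases are the enzymes that switch MAP kinases off, and the genes described here are 8 of them: Dusp1, Dusp2, Dusp4, Dusp5, Dusp6, Dusp7, Dusp10 and Dusp16. They were taken by symbol from a table of read counts for 21983 genes, all 8 were found in it, and all 8 passed the filter on low counts that left 12543 genes tested. The samples are RNA sequencing libraries of primary microglia (macrophages that reside in the brain) taken from mouse brains. The labelled knockout group (2 libraries) has the genotype Cx3cr1CreERT2 Ythdf2fl/fl, a Cre recombinase that tamoxifen activates and that Cx3cr1 sequences drive, with loxP sites around part of both Ythdf2 alleles. The control group (3 libraries) has the genotype Ythdf2fl/fl, so the floxed alleles are shared by all libraries and no Cre is labelled in the controls. Tamoxifen treatment, age, and whether libraries come from separate animals or cultures are not in the labels, and p-values here measure only the spread between these libraries, which may be technical.

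MAP kinases (the ERK, JNK and p38 families) are switched on when a threonine and a tyrosine of the activation loop are both phosphorylated, and MAP kinase phosphatases remove both phosphates. Many of their genes are themselves transcribed in response to MAP kinase signalling, so the family is a feedback brake on the pathway. In macrophages and microglia Dusp1 is best known for limiting p38 and JNK activity, and with it cytokine output, after Toll-like receptor stimulation. Ythdf2 encodes a protein that binds mRNAs carrying N6-methyladenosine and promotes their decay. The comparison addresses how expression differs between microglia labelled as lacking it and controls.

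The targeted gene went against its label. Ythdf2 stood at 103 and 127 CPM (CPM, a read count relative to the effective size of its library) in the knockout-labelled libraries, compared with 57.0, 69.2 and 68.8 CPM in the controls. Reads from exons outside a deleted stretch also enter the count of a whole gene, so the deletion itself is not checked, and every direction below is drawn from the labels. Cx3cr1, the gene at the Cre locus and a microglia marker, was at 337 and 97.7 CPM in the knockout-labelled libraries, compared with 682, 992 and 681 CPM in the controls. Total gene counts ran from 13947500 to 19577217 per library, so 1 CPM is 13.45 to 18.5 reads. Of 10 microglia markers all were detected in some library, but Siglech stood at 0 and 0.108 CPM in the knockout-labelled libraries and at 0.0743 to 1.20 CPM in the controls. Markers of other cells were also present and differed between libraries. The summed level of 8 choroid plexus markers was 570 and 346 CPM in the knockout-labelled libraries and 60.3 to 213 CPM in the controls. Enpp2 made up most of that sum in each control and in the knockout-labelled library 1. It overlapped between the groups, at 401 and 121 CPM compared with 158, 206 and 33.2 CPM. The other 7 lay above every control in both knockout-labelled libraries (9.85% of all genes tested did). The summed level of 7 oligodendrocyte markers ranged from 1099 to 11640 CPM over the 5 libraries.

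Of the 8 phosphatase genes, Dusp1, Dusp2 and Dusp5 were lower in both knockout-labelled libraries than in any control. Dusp4, Dusp6, Dusp7, Dusp10 and Dusp16 overlapped between the groups. The 3 genes that separated encode nuclear enzymes whose transcription is induced by stimulation, but so does Dusp4, which overlapped. Among the controls these 3 did not run together. Control 3 was the highest control for Dusp2 (4.09 CPM) and the lowest for Dusp1 (30.1 CPM) and Dusp5 (14.6 CPM). The promoters of Dusp1, Dusp2 and Dusp5 are shown here because each was lower in both knockout-labelled libraries, a choice made from these same values. Each window runs from 250 bases before to 50 bases after the transcription start, 5' to 3' on the gene's own strand (RefSeq, GRCm38.p6). Capitals mark every match, on either strand, to the sequences searched: the full cAMP response element TGACGTCA, its core TGACG, the E-box CACGTG, the AP-1 site TGANTCA, the ETS site CCGGAAGT, the TATA box TATAAA and the CArG box, to which serum response factor binds. A match to the core can lie inside a match to the full element. The windows are Dusp1 at chr17:26508423-26508722 on the minus strand, Dusp2 at chr2:127335909-127336208 on the plus strand and Dusp5 at chr19:53528895-53529194 on the plus strand.
Dusp1: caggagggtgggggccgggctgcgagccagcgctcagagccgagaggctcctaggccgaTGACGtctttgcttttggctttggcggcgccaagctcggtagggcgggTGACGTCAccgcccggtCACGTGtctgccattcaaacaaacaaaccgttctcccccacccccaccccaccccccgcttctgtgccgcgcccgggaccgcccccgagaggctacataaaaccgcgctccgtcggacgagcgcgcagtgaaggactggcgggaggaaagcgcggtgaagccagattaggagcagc
Dusp2: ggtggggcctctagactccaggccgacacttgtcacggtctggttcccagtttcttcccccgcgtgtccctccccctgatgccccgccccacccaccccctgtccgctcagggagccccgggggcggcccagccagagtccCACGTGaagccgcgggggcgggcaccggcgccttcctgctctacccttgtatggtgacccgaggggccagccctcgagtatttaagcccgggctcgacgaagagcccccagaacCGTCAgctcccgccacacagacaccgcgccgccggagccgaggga
Dusp5: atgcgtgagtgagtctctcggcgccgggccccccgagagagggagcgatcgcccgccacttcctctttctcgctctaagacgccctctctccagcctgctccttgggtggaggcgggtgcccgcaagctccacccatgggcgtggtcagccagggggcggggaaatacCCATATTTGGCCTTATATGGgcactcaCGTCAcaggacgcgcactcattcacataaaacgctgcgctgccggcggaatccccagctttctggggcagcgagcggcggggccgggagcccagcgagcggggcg

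Windows for 7 of the 8 members were matched by symbol, and that of Dusp4 was not. Each window sits at a single RefSeq start of its gene. The GENCODE spans of Dusp1 and Dusp10, given below, begin far upstream of their windows, and sequence at those upstream starts was not searched. The Dusp1 window holds the full cAMP response element at -143 to -136 from that RefSeq start (position 0), an outlying core at -191 to -187 and an E-box at -126 to -121. Dusp2 has an E-box at -109 to -104 and a core at 5 to 9, within the transcribed part. Dusp5 has a pair of adjoining CArG boxes at -82 to -73 and -72 to -63, followed by a core at -55 to -51. Of the members that overlapped between groups, Dusp16 has a core at -70 to -66, and the windows of Dusp6, Dusp7 and Dusp10 hold none of the sequences searched. Among all 32851 windows, 1.79% hold the full element, 20.8% the core, 7.15% the E-box and 1.63% a CArG box. The AP-1 site, the ETS site and the TATA box, held by 7.81%, 3.89% and 13.6% of windows, matched in no member. Each match describes letters in these windows and is not a measured binding site.

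**Figure D1:**
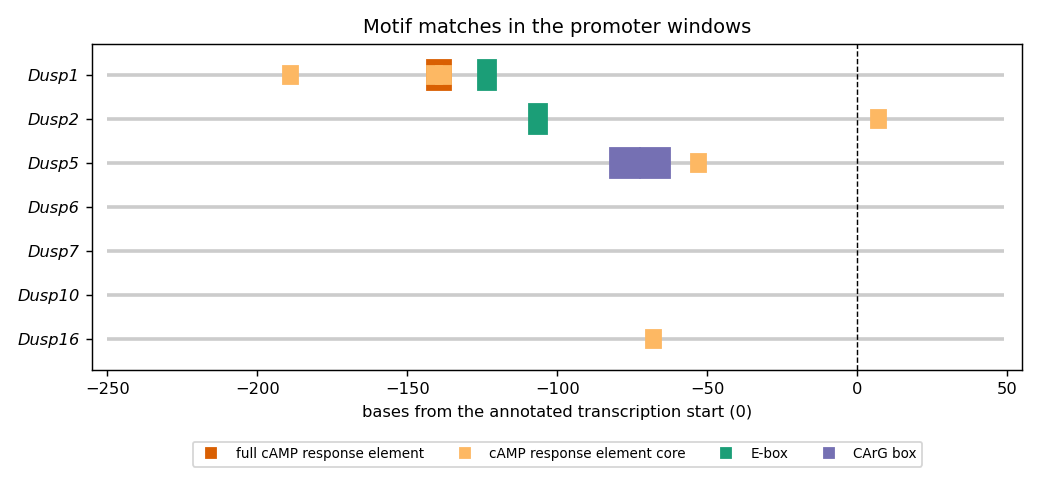
Matches to the sequences searched in the promoter windows of 7 members, by distance in bases from the annotated transcription start (dashed line), with 1 row per gene and 1 colour per motif. The core lies in the windows of Dusp1, Dusp2, Dusp5 and Dusp16, and in 20.8% of all windows. The E-box lies in Dusp1 and Dusp2, the full element in Dusp1 and the CArG boxes in Dusp5. Dusp6, Dusp7 and Dusp10 hold no match.

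Dusp1 encodes MKP-1, a nuclear phosphatase of p38, JNK and ERK and an immediate early gene. It stood at 3.99 and 11.5 CPM in the knockout-labelled libraries, compared with 92.3, 68.4 and 30.1 CPM in controls 1 to 3. The groups did not overlap, and the lowest control was 2.63-fold above the higher knockout-labelled library. Control 3 lay well below the other controls, so the gene also varied 3.07-fold within that group. The means were 7.72 ± 5.28 CPM (SD, n = 2) in the knockout-labelled libraries and 63.6 ± 31.4 CPM (SD, n = 3) in the controls, 8.24-fold lower. The edgeR quasi-likelihood test gave a log2 fold change of -3.04 (SE 0.68) with Benjamini-Hochberg adjusted p = 0.369 over all genes tested, which misses the threshold of 0.05. DESeq2 called the gene (log2 fold change -3.03, SE 0.63, adjusted p = 0.000416), and it called it again with each library left out in turn. With single libraries left out the edgeR log2 fold change ran from -3.995 (without the knockout-labelled library 2) to -2.50 (without the knockout-labelled library 1), and it was -2.67 without control 1.

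Dusp5 encodes a nuclear phosphatase that acts on ERK alone within the MAP kinases. It stood at 2.50 and 3.84 CPM in the knockout-labelled libraries, compared with 21.9, 19.8 and 14.6 CPM in the controls. Its groups lay farther apart than those of any other member, with the lowest control 3.797-fold above the higher knockout-labelled library, and its controls varied only 1.501-fold. Means were 3.17 ± 0.947 CPM (SD, n = 2) in the knockout-labelled libraries and 18.8 ± 3.77 CPM (SD, n = 3) in the controls, 5.92-fold lower. By edgeR the log2 fold change was -2.56 (SE 0.38, unadjusted p = 0.000565, adjusted p = 0.262), the smallest p of the 8 members and rank 22 of all genes tested. DESeq2 gave -2.55 (SE 0.42, adjusted p = 1.1e-06) and called Dusp5 again with each library left out in turn. Leaving out single libraries moved the edgeR log2 fold change between -2.91 and -2.32.

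Dusp2 encodes PAC-1, an inducible nuclear phosphatase found mainly in blood and immune cells. It was the least abundant member, at 0.357 and 0.811 CPM in the knockout-labelled libraries, compared with 2.07, 1.01 and 4.09 CPM in the controls. These levels rest on 6 and 15 reads in the knockout-labelled libraries and on 33, 16 and 55 reads in the controls. The groups did not overlap, but the gap was 1.25-fold, within counting error. The exact Poisson 95% interval was 0.454 to 1.34 CPM for the knockout-labelled library 2 and 0.58 to 1.65 CPM for control 2, and such intervals cover counting error only. The log2 fold change was -1.99 (SE 0.82), with edgeR adjusted p = 0.758 and DESeq2 adjusted p = 0.441. It was -1.38 without control 3 and -2.70 without the knockout-labelled library 2.

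Dusp4 encodes MKP-2, also a nuclear and inducible enzyme, and it did not separate the groups. Its levels were 39.2 and 34.9 CPM in the knockout-labelled libraries, compared with 25.9, 26.4 and 49.3 CPM in the controls. Both knockout-labelled libraries lay between the controls. The log2 fold change was 0.13 (SE 0.35, edgeR adjusted p = 0.964), and it was -0.023 without control 1 and -0.021 without control 2. A test of Dusp4 against Dusp1, Dusp2 or Dusp5 was not run.

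Counted together, 3 of the 8 members lay below every control in both knockout-labelled libraries and 0 lay above. Over all genes tested 10.4% lay below every control and 9.85% above. At an unadjusted edgeR p under 0.05, 2 members (Dusp1 and Dusp5) were lower and 0 higher, against 2.69% and 3.99% of all genes tested. DESeq2 called the same pair lower and 0 members higher, where it called 0.623% of 13811 genes lower and 1.06% higher. By the edgeR adjusted p, 0 members and 0 genes (0%) passed, while 838 genes had an unadjusted p under 0.05, DESeq2 called 232 genes and limma-voom 0. The median log2 fold change of the members was -0.03, beside 0.01 over all genes tested, with 4 members below 0 and 4 above.

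Markers of several cell types also differed between the groups, beside Dusp1 and Dusp5. The summed level of 10 microglia markers was 3394 and 4037 CPM in the knockout-labelled libraries, compared with 5902, 6951 and 5594 CPM in the controls, with 8 of 10 negative and Fcrls and Olfml3 among those called lower by DESeq2. Csf1r, which overlapped between the groups at 2416 and 3154 CPM compared with 3422, 4220 and 2372 CPM, made up most of that sum. The other 2 markers lay above every control in both knockout-labelled libraries, as did 9.85% of all genes tested. Tmem119 was at 34.1 and 13.7 CPM, compared with 11.1, 7.03 and 5.35 CPM. P2ry12 was at 25.2 and 32.5 CPM, compared with 9.24, 8.81 and 23.0 CPM. Fibroblast and mural cell markers summed to 19.3 and 9.19 CPM, compared with 110 (control 1), 107 (control 2) and 33.1 CPM (control 3). Of 6 tested, 5 lay below every control (10.4% of all genes tested did). DESeq2 called 2 lower, where it called 0.623% of all genes lower, and Rgs5 was at or near 0 in each library. Control 3 was the lowest control for the fibroblast and mural sum, as it was for Dusp1 and Dusp5. Choroid plexus markers ran the other way, with 7 of 8 called higher by DESeq2, where it called 1.06% of all genes higher. The part of these cells in the Dusp1 and Dusp5 levels was not tested.

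**Figure D2:**
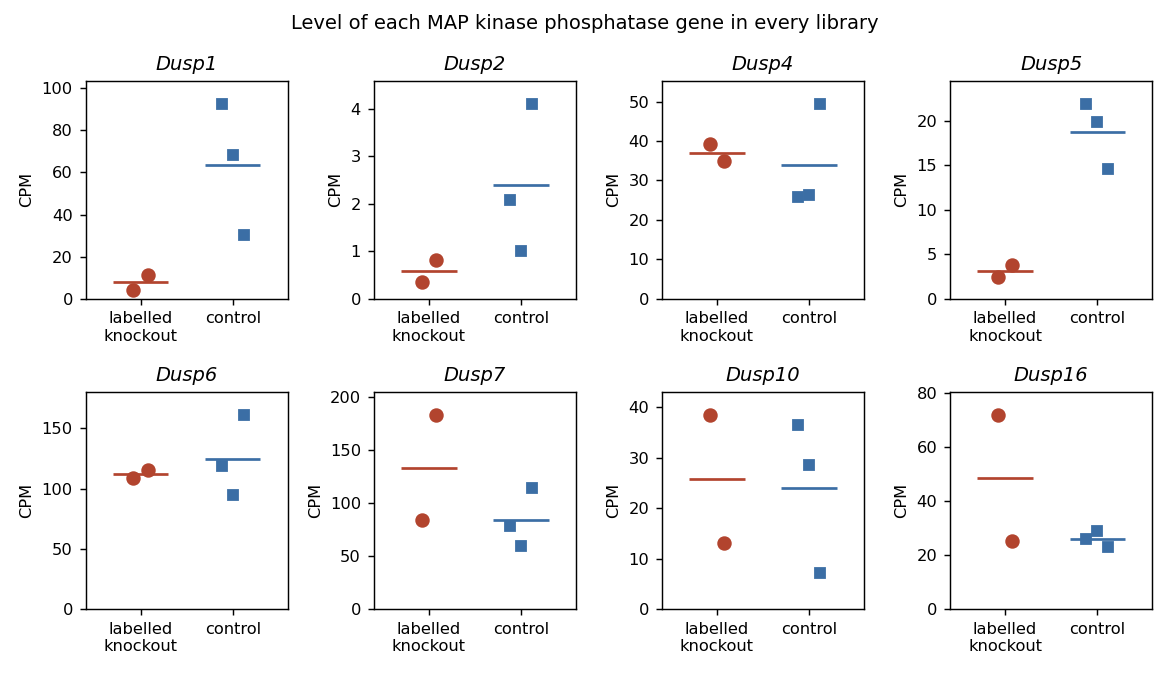
Level of each member in CPM (vertical axes from 0, a different scale per gene) in the 2 knockout-labelled libraries (circles) and the 3 controls (squares), with lines at the group means. Dusp1, Dusp2 and Dusp5 are lower in both knockout-labelled libraries than in any control, and the other 5 genes overlap between groups.

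Dusp6 and Dusp7 encode the cytoplasmic phosphatases MKP-3 and MKP-X, which act on ERK. By group mean they were the most abundant members per length of merged exons. Dusp6, a standard readout of ERK activity, was at 109 and 115 CPM in the knockout-labelled libraries and at 119, 94.3 and 161 CPM in the controls. The knockout-labelled libraries lay inside the range of the controls, with a log2 fold change of -0.16 (SE 0.27, edgeR adjusted p = 0.941) that was 0.072 without control 3. Dusp7 was at 83.9 and 183 CPM in the knockout-labelled libraries, compared with 78.3, 60.0 and 114 CPM in the controls. Only the knockout-labelled library 2 exceeded the controls, 2.18-fold above the knockout-labelled library 1. The Dusp7 log2 fold change of 0.67 (SE 0.42, edgeR adjusted p = 0.88) was -0.0016 without that library, so it rested on it.

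Dusp10 (MKP-5) and Dusp16 (MKP-7) encode phosphatases that prefer JNK and p38. Dusp10 was at 38.5 and 13.2 CPM in the knockout-labelled libraries, compared with 36.5, 28.6 and 7.14 CPM in the controls. It varied more within each group than between them: 2.92-fold between the knockout-labelled libraries and 5.11-fold among the controls. Its log2 fold change was 0.10 (SE 0.75, edgeR adjusted p = 0.986), and it was -0.90 without the knockout-labelled library 1, 0.67 without the knockout-labelled library 2 and -0.33 without control 3. Dusp16 was at 71.7 and 25.2 CPM in the knockout-labelled libraries, compared with 26.1, 28.8 and 23.0 CPM in the controls. A single library, labelled knockout 1, stood above a narrow band formed by the other libraries. The Dusp16 log2 fold change was 0.90 (SE 0.44, edgeR adjusted p = 0.836), and it was -0.07 without the knockout-labelled library 1. Without the knockout-labelled library 2 it was 1.47, and DESeq2 then called the gene (adjusted p = 0.00922).

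Oligodendrocyte markers varied between libraries in the way Dusp10 did. The summed oligodendrocyte markers were at 11640 and 4363 CPM in the knockout-labelled libraries, compared with 10100, 8957 and 1099 CPM in the controls. Dusp10 and this sum ranked the 5 libraries in the same order, from the knockout-labelled library 1 at the top to control 3 at the bottom. For Dusp16 the same libraries were the highest and the lowest. Of 5 neuronal markers, Tubb3 carried nearly all counts (125 and 28.9 CPM, compared with 56.0, 52.3 and 10.2 CPM) and followed the same order, while Snap25, Syt1 and Rbfox3 were under 1 CPM in each library. All 7 oligodendrocyte markers were detected and DESeq2 called 0 of them. The part of oligodendrocyte and neuronal RNA in the Dusp10 and Dusp16 levels was not tested. In bulk RNA, fewer cells of a type and less RNA per cell cannot be told apart.

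**Figure D3:**
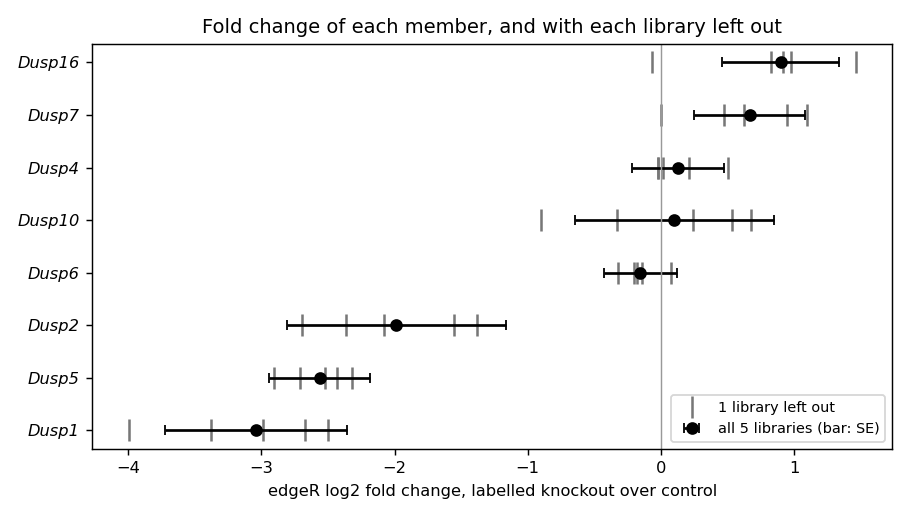
edgeR log2 fold change of each member, labelled knockout over control (points, with bars of 1 SE), and the value with each library left out in turn (grey ticks). Dusp1, Dusp5 and Dusp2 stay below 0 with each library left out, while the ticks of Dusp4, Dusp6, Dusp7, Dusp10 and Dusp16 fall on both sides of 0.

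Divided by the merged exon length of each gene, the levels can be compared roughly between genes. The order can depend on the length chosen. Merged exons span 3311 bases for Dusp1 and 7798 for Dusp16, but their coding transcripts span 1990 and 5104. For Dusp4 both lengths are 2740. Orders and shares by transcript length were not computed. In the knockout-labelled libraries Dusp7 (39.7 ± 20.8 CPM per kb, SD, n = 2) and Dusp6 (35.8 ± 1.502) led, followed by Dusp4 (13.5 ± 1.11), Dusp10 (8.49 ± 5.88), Dusp16 (6.22 ± 4.22), Dusp1 (2.33 ± 1.596), Dusp5 (1.28 ± 0.383) and Dusp2 (0.291 ± 0.16). In the controls the order was Dusp6 (39.8 ± 10.7 CPM per kb, SD, n = 3), Dusp7 (25.04 ± 8.15), Dusp1 (19.2 ± 9.48), Dusp4 (12.4 ± 4.87), Dusp10 (7.91 ± 4.99), Dusp5 (7.59 ± 1.52), Dusp16 (3.33 ± 0.372) and Dusp2 (1.19 ± 0.78). Neighbours in the order overlapped in most cases. In the knockout-labelled libraries Dusp6 and Dusp4, Dusp4 and Dusp10, and Dusp5 and Dusp2 did not overlap. In the controls Dusp5 and Dusp16, and Dusp16 and Dusp2, did not.

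By merged exon length, Dusp1 ranked the sixth of the 8 in the knockout-labelled libraries and the third in the controls. The shares that follow use the same lengths. As a share of the summed level of all 8, Dusp1, Dusp2 and Dusp5 made up 2.44% and 4.63% in the knockout-labelled libraries, compared with 30.5%, 29.2% and 13.6% in the controls. The whole family summed to 98.25 and 117 CPM per kb in the knockout-labelled libraries and to 124, 99.9 and 126 CPM per kb in the controls, which overlap. Dusp6 and Dusp7 made up 60.8% and 78.0% in the knockout-labelled libraries, compared with 49.5%, 48.0% and 67.9% in the controls. The shares of Dusp6 and Dusp7 overlap between the groups, while those of Dusp1, Dusp2 and Dusp5 together do not, which follows from the values given above.

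Over the 5 libraries the 8 members followed several patterns. Likeness was measured as the root mean square difference between log2 CPM values centred on each gene's mean. Values were not scaled to each gene's spread, so genes that vary little lie close together by this measure. Among members, Dusp4 and Dusp6 were closest (0.237 log2 units) and Dusp1 and Dusp16 farthest apart (2.13). The closest member to Dusp1 was Dusp5 (0.512).

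Among 8537 genes with a mean of at least 10 CPM, the 4 closest to Dusp1 were Vegfa (0.451), the main angiogenic growth factor gene, Dusp5, Cd14 (0.528), a co-receptor for lipopolysaccharide, and Sall3 (0.692), a zinc finger transcription factor gene. The gene closest to Dusp5 was Fos (0.234), which encodes an AP-1 subunit. For the others the closest genes were Lox for Dusp2 (0.272), Cep192 for Dusp4 (0.0809), Tbrg1 for Dusp6 (0.0471), Myo1g for Dusp7 (0.0719), Pcyox1l for Dusp10 (0.0786) and Lpcat4 for Dusp16 (0.0444). How close the nearest gene lies for genes in general was not computed.

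**Figure D4:**
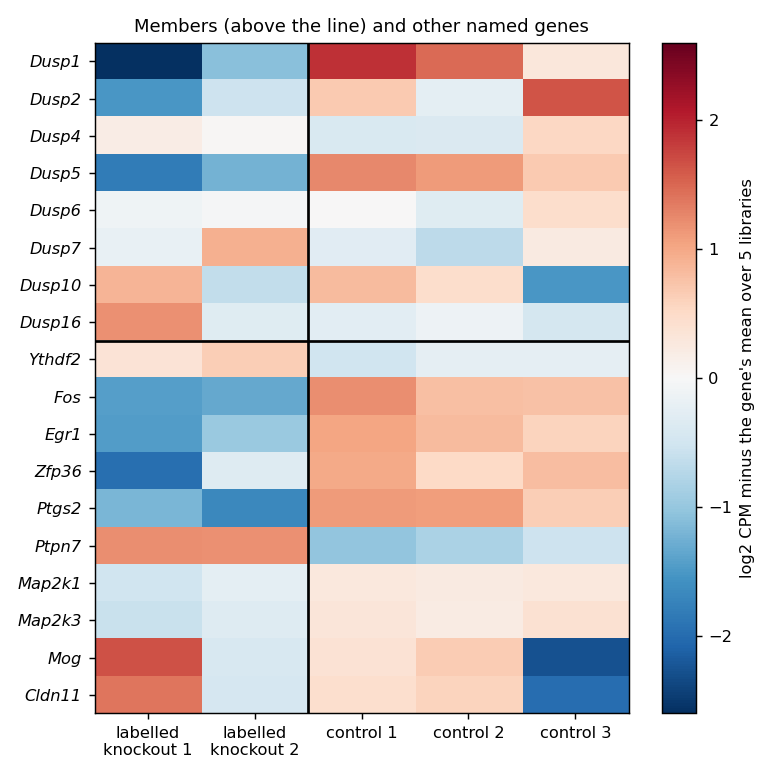
Log2 CPM minus each gene's mean over the 5 libraries (colour, from blue for lower to red for higher) for the 8 members, above the horizontal line, and for other named genes below it, with knockout-labelled libraries left of the vertical line. Dusp1 and Dusp5 are blue in both knockout-labelled libraries and red in the controls, as are Fos and Egr1, while Dusp10 runs with the oligodendrocyte genes Mog and Cldn11.

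Most other genes of the MAP kinase pathway and its outputs passed no test. Of 148 genes tested from 14 lists of pathway and response genes, 2 (1.35%) were higher and 11 (7.43%) lower at an unadjusted edgeR p under 0.05, beside 3.99% and 2.69% of all genes tested. DESeq2 called 1 higher and 4 lower, where it called 1.06% of all genes higher and 0.623% lower. By edgeR's adjusted p over all genes 0 passed, and the median log2 fold change was -0.04. The gene called higher was Ptpn7, which encodes a tyrosine phosphatase of blood cells that acts on ERK and p38. It was at 105 and 103 CPM in the knockout-labelled libraries, compared with 22.1, 25.5 and 31.2 CPM in the controls, a log2 fold change of 1.99 (SE 0.22, DESeq2 adjusted p = 1.93e-07, edgeR adjusted p = 0.231). Some markers of other myeloid cells also stood higher. The 7 monocyte markers summed to 54.5 and 23.4 CPM in the knockout-labelled libraries, compared with 3.52, 4.435 and 6.84 CPM in the controls. Of 3 tested, DESeq2 called 2 higher, Ace and Spn, and this pair made up most of the sum in each library. Ccr2 overlapped between the groups, at 0.773 and 1.89 CPM compared with 1.01, 0.634 and 1.64 CPM. Ly6c2 and Plac8 were at or near 0 in each library, and Chil3 and Treml4 at 0 throughout. The 6 markers of border-associated macrophages overlapped in sum, at 486 and 1701 CPM compared with 393, 330 and 685 CPM, with 1 (F13a1) called higher by DESeq2 and 1 (Lyve1) below every control. Their part in the Ptpn7 level was not tested. A further gene of the phosphatase list, Ppp2cb, a catalytic subunit of protein phosphatase 2A, was at 39.6 and 52.6 CPM, compared with 61.3, 58.2 and 73.7 CPM in the controls.

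Among the kinases themselves, 11 MAP kinases had a log2 fold change with median -0.06. Mapk4, an atypical MAP kinase gene, was at 6.42 and 1.35 CPM in the knockout-labelled libraries, compared with 0.377, 0.95 and 0.372 CPM in the controls. Of 7 MAP kinase kinases, 2 lay below every control in both knockout-labelled libraries, as did 10.4% of all genes tested. Map2k1, which encodes the ERK activator MEK1, was at 109 and 131 CPM in the knockout-labelled libraries, compared with 190, 184 and 189 CPM in the controls. Map2k3, which encodes a p38 activator, was at 54.9 and 65.6 CPM, compared with 102, 94.9 and 108 CPM in the controls. The log2 fold changes of this pair were -0.65 and -0.76, with edgeR adjusted p of 0.574 and 0.477 and DESeq2 adjusted p of 0.342 and 0.209.

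Upstream of these, 21 MAP kinase kinase kinases had a log2 fold change with median 0.18, with 0 members at an unadjusted edgeR p under 0.05 (0 called by DESeq2). The lowest p there belonged to Map3k14 and Map3k9, at -0.78 and -0.58. The 10 kinases downstream of MAP kinases had a median of 0.27, with Mknk2, an eIF4E kinase gene, at 216 and 255 CPM in the knockout-labelled libraries against 146, 174 and 177 CPM in the controls. Mapkapk3, a p38-activated kinase gene, was at 33.31 and 72.4 CPM compared with 31.2, 30.4 and 33.30 CPM. The 12 scaffolds had a median of 0.23, with the smallest p for Ksr1 (0.70) and Arrb1 (0.38), and 0 of these downstream kinases or scaffolds had an unadjusted edgeR p under 0.05 (0 called by DESeq2).

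Sprouty and Spred proteins are further feedback inhibitors of ERK signalling. The 7 genes tested had a log2 fold change with median -0.06 and 0 members at an unadjusted edgeR p under 0.05 (0 called by DESeq2). Spry2 was at 35.7 and 14.9 CPM in the knockout-labelled libraries, compared with 10.2, 21.5 and 11.5 CPM in the controls, and Errfi1, a brake on the EGF receptor, at 18.8 and 12.3 CPM compared with 31.7, 27.6 and 17.4 CPM. Of 12 ERK output genes, Fosl1 lay below every control (2.02 and 0.973 CPM compared with 3.33, 3.93 and 2.38 CPM), and the median was -0.04. Epha2 had the smallest p with a log2 fold change of 1.63, but it overlapped between the groups. It was at 15.9 and 3.40 CPM compared with 3.08, 2.28 and 4.01 CPM, so only the knockout-labelled library 1 exceeded the controls.

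The remaining phosphatases of the family were mostly low or overlapping. Dusp9, a cytoplasmic relative of Dusp6, was at 0.833 and 0.378 CPM in the knockout-labelled libraries, compared with 2.64, 2.34 and 1.19 CPM in the controls. Dusp8, a relative of Dusp16, was at 19.99 and 5.35 CPM, compared with 11.9, 11.3 and 1.78 CPM, with the same top and bottom library as Dusp10. Of 12 atypical dual-specificity phosphatases, Dusp15 and Dusp18 had the smallest p, with log2 fold changes of 1.38 and 0.78, and 0 had an unadjusted edgeR p under 0.05 (0 called by DESeq2).

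Immediate early genes such as Dusp1 are transcribed within minutes of a stimulus, and others of this kind also had lower values. Of 23 tested, 22 had a negative log2 fold change (48.9% of all genes tested did), the median was -0.84, 10 lay below every control in both knockout-labelled libraries (10.4% of all genes tested did), and DESeq2 called 3 lower and 0 higher. Fos was at 24.9 and 26.8 CPM in the knockout-labelled libraries, compared with 157, 117 and 116 CPM in the controls. Egr1, a zinc finger transcription factor gene, was at 23.0 and 32.4 CPM, compared with 129, 112 and 95.5 CPM. Cyr61, the third gene called, encodes a matrix protein and was at 2.26 and 1.41 CPM, compared with 29.5, 16.7 and 2.82 CPM, so that control 3 lay close to the knockout-labelled libraries. Jun, another AP-1 subunit gene, overlapped between groups at 133 and 188 CPM compared with 162, 134 and 158 CPM. It was picked out after its values were seen, as the only gene of the list above 0.

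Glucocorticoids are a classic inducer of Dusp1. The list of 9 genes read here holds targets of their receptor and the receptor gene itself, Nr3c1. In both knockout-labelled libraries 0 of the 9 lay below every control (10.4% of all genes tested did) and 0 above (9.85% did). At an unadjusted edgeR p under 0.05 there were 0 (0 called by DESeq2), and the median log2 fold change was -0.03. The part of glucocorticoids in the Dusp1 level was not tested. Sgk1, a kinase gene of this list, was at 127 and 238 CPM in the knockout-labelled libraries, compared with 379, 262 and 205 CPM in the controls.

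Cytokine and inflammatory mRNAs that depend on p38 and JNK had a log2 fold change with median -1.12 over 10 genes, with 8 negative. Ptgs2, the inducible cyclooxygenase gene, was called lower by DESeq2 (adjusted p = 3.33e-06, edgeR adjusted p = 0.262), at 3.39 and 2.38 CPM compared with 17.1, 16.9 and 12.3 CPM. Il1b was at 0 and 5.13 CPM compared with 25.8, 14.0 and 5.35 CPM, and neither edgeR nor DESeq2 called it.

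**Figure D5:**
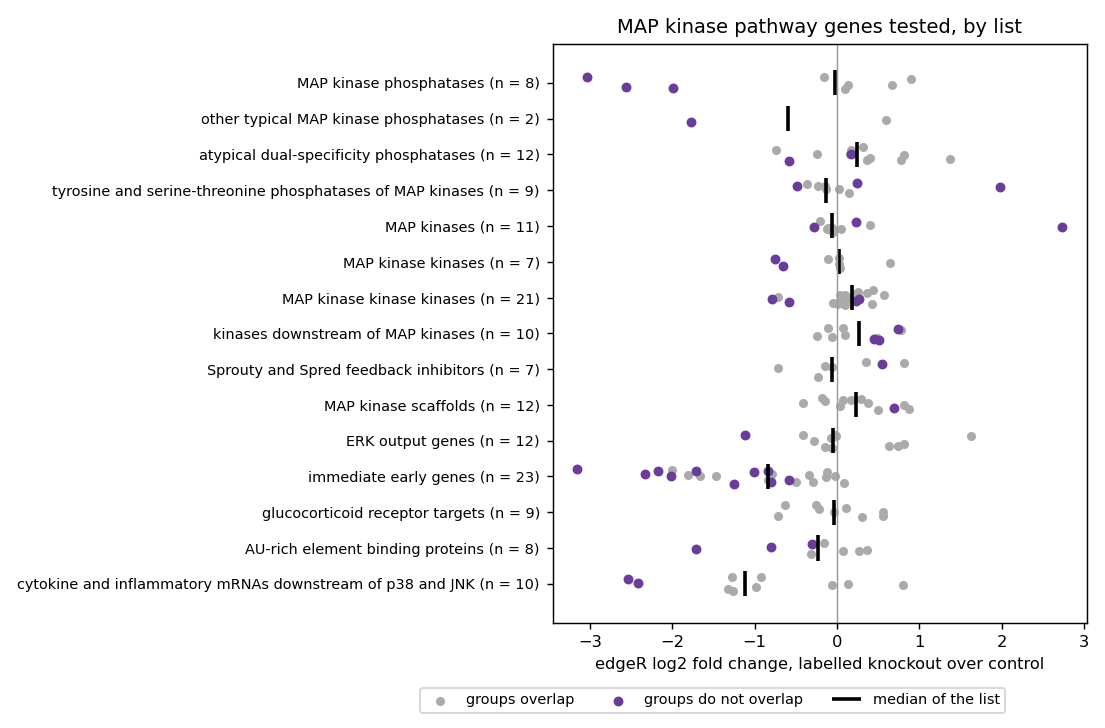
edgeR log2 fold change, labelled knockout over control, of each gene tested in the member list and the 14 pathway and response lists (points; purple where the groups do not overlap), with the median of each list as a black bar. The members split between 3 genes near -2 to -3 and 5 genes near 0 or above, and most medians lie close to 0, apart from those of the immediate early genes (-0.84), the inflammatory mRNAs (-1.12) and the pair of Dusp8 and Dusp9 (-0.59).

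Dusp1 and Dusp2 mRNAs carry AU-rich elements, the pentamer ATTTA in the 3' untranslated region to which decay factors such as Zfp36 bind. Each has 4 copies, 5.80 and 6.89 per kb, whereas the median over 12298 genes tested was 1.24 per kb and 11.1% of them had 4 or more per kb. By copies alone, 27.2% of these genes had 4 or more and 67% had any. Dusp5 has 1 copy, Dusp4 2, Dusp6 1, Dusp7 0, and Dusp10 and Dusp16 3 each. The densest stretches of 30 bases in Dusp10 and Dusp16 hold 2 pentamers each, as do those of Dusp1 and Dusp2. The stretches of Dusp1 and Dusp2 are shown with each pentamer in capitals. They span bases 84 to 113 of the Dusp1 region and bases 197 to 226 of the Dusp2 region (GENCODE M21 transcripts).
Dusp1 AU-rich stretch: ggctcatgggagctggtccttATTTATTTA
Dusp2 AU-rich stretch: ttgcagaaattaATTTAattaattaATTTA

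Zfp36, which encodes tristetraprolin, was at 29.6 and 92.2 CPM in the knockout-labelled libraries, compared with 231, 166 and 202 CPM in the controls (a log2 ratio of -1.71, SE 0.51, edgeR adjusted p = 0.556, DESeq2 adjusted p = 0.065). Of the 8 AU-rich element binding proteins tested, 3 lay below every control, as did 10.4% of all genes tested. Hnrnpd was among them, at 50.9 and 75.01 CPM compared with 104, 110.0 and 115 CPM. The median log2 fold change of these 8 was -0.23, with 5 negative and 3 positive. The pentamer GGACT, a common form of the sequence that receives N6-methyladenosine, occurs 4 times in the Dusp1 transcript, 2 times in Dusp5 and 0 times in Dusp2. It occurs 6 times in Dusp4, 8 in Dusp6, 4 in Dusp7, 3 in Dusp10 and 5 in Dusp16, and the median over genes tested was 3, with 92.3% holding at least 1. Methylation was not measured in these libraries, and neither count separated the 3 lower members from the other 5.

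On GRCm38 (GENCODE M21) the members lie on 8 different chromosomes. Dusp1 lies on chromosome 17 at 26505590 to 26562128 (minus strand), Dusp5 on chromosome 19 at 53529109 to 53542431 (plus strand) and Dusp2 on chromosome 2 at 127336159 to 127338376 (plus strand). Dusp4 lies on chromosome 8 at 34807297 to 34819894, Dusp6 on chromosome 10 at 99263231 to 99267489, Dusp7 on chromosome 9 at 106368632 to 106375724 and Dusp10 on chromosome 1 at 184013302 to 184075636, all on the plus strand. Dusp16 lies on chromosome 6 at 134715468 to 134792625 (minus strand). Exons of Dusp5 overlap 547 bases of an antisense gene, AC137853.2, and exons of Dusp1 overlap 11 bases of Ergic1 on the opposite strand. The strand setting of the counting is not stated in these sources. No exon of another annotated gene overlaps those of the other 6 members.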

How the data were processed

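The authors deposited raw read counts, 1 whole number per gene and library. The submitters' processing notes name FastQC, STAR, HTSeq and mm10. Versions and annotation were not given in the sources used here. Members, gene lists and tests were chosen with earlier results of these data known. Groups and replicate numbers came from sample titles, and the third control, whose title carries 2 numbers, kept its library number.

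Groups were compared with glmQLFit and glmQLFTest of edgeR 4.0.16 under R 4.3.3 (a robust quasi-likelihood fit, two-sided, 3 residual degrees of freedom), after filterByExpr, TMM factors and Benjamini-Hochberg adjustment over the 12543 genes tested. SE is the absolute log2 fold change divided by the square root of F. CPM was computed with TMM factors, and log2 CPM with a prior count of 2. DESeq2 1.42.0 and limma-voom (limma 3.58.1), other scalings and filters, a replicate block and leaving out each library were alternatives. The DESeq2 fits without single libraries, or with the block, were added after seeing the data.

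The rule for named genes took all members, Ythdf2 and Cx3cr1, up to 4 DESeq2 calls and the 2 smallest edgeR p of each list, and the closest patterns; a gene that it named is not reported here. Of 21983 symbols 21896 matched GENCODE M21 (GRCm38), which gave merged exon lengths, overlaps and, from the coding transcript with the longest coding sequence, 3' untranslated regions. The steps were tested on simulated data. Every pair of libraries differed by more than counting noise (chi-square of at least 45.6 per degree of freedom).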

Additional observations from a re-analysis of the deposited data

How the results depend on the processing

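The log2 fold changes of Dusp1, Dusp2 and Dusp5 kept their sign under each alternative run. edgeR called 0 genes and 0 members with each library left out (0 to 0), DESeq2 called 232 genes and 2 members, and edgeR with the replicate block called 4 genes and 0 members. DESeq2 calls ranged from 87 (without control 1) to 470 genes (with knockout-labelled library 2 left out), 102 without control 2, with 2 to 3 members among them, and were 151 genes and 2 members with the block. DESeq2 adjusted p for Dusp1 reached at most 0.029 and for Dusp5 at most 0.0088 with libraries left out.

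With single libraries left out, the edgeR log2 fold change ranged from -0.023 to 0.50 for Dusp4, -0.32 to 0.072 for Dusp6, -0.0016 to 1.09 for Dusp7, -0.90 to 0.67 for Dusp10 and -0.0705 to 1.47 for Dusp16, and the DESeq2 value of Dusp16 from -0.050 to 1.49; the cause was not tested. With the replicate block Dusp6 was at 0.079 and Dusp10 at -0.52. The numbers are not shown to pair the libraries: only 2 numbers are shared, and deviations of same-numbered libraries correlated at 0.148 and -0.562. Fits that leave a lone knockout-labelled library assume that it varies like the controls. Other scalings moved the median of all genes by at most 0.0189. Depth limits Dusp2, which rests on 6 to 55 reads per library.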
